A study of Mus musculus with 2 samples.

Results

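The genes described here are 38 genes of the postsynaptic scaffold and of adhesion across the synapse. They were chosen by name as a functional set, with earlier results of these data known. All 38 were matched by gene identifier, out of 69691 features in each gene table and 21461 nuclear protein-coding genes. They comprise 16 scaffold genes (the MAGUK, SAPAP, Shank and Homer families and gephyrin), 4 subunits of the kinase CaMKII, and 18 adhesion genes. Total RNA of the embryonic forebrain was measured at day 12.5 in B6NCrl mice. The 2 replicates of this single group were pools of both sexes, made from 120 embryos (replicate 1) and 68 embryos (replicate 2), and each library was started from 10 ng of RNA. No genotype, treatment or second age was present, so every comparison below is between genes or transcripts within the libraries, or between the 2 pools.

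At an excitatory synapse the postsynaptic density is built in layers. MAGUK proteins lie under the membrane and bind receptors and adhesion proteins, SAPAP proteins link MAGUKs to Shank proteins, and Homer proteins link Shanks to signalling partners. Gephyrin is the corresponding scaffold of inhibitory synapses, and CaMKII is the calcium-dependent kinase that is abundant in the mature density. Neuroligins, LRRTM proteins, SynCAMs, neurexins, LAR-type receptor phosphatases and secreted cerebellins join the presynaptic and postsynaptic membranes, and alternative exons in several of them are known to set which partners bind. At this age the forebrain holds mostly dividing progenitors and young neurons that have made few synapses.

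The libraries held 33711030 and 34578499 expected counts, of which the 38 genes took 0.252% and 0.247%, between 170 and 23826 counts per gene and library. All 6 telencephalic, all 6 radial glial and all 6 neuronal marker genes were at 1 TPM or more in both libraries, and none of 6 hindbrain and spinal cord Hox genes was. All 6 markers each of blood, endothelium and meninges were also present. TPM is the abundance of a transcript per length, relative to all features of its library. In RNA of a whole tissue, fewer cells of a type and less RNA per cell cannot be told apart. The levels of blood markers summed to 6342 TPM in replicate 1 and 8622 TPM in replicate 2, those of meninges to 687 and 837 TPM, and those of neurons to 1429 and 1329 TPM. Their part in the levels below was not tested.

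Several results below turn on which coding exons the transcripts carried, so the exons concerned are shown here as read from GENCODE M21 transcripts on GRCm38. Each is written 5′ to 3′ with the exon in capitals and 12 bases of the neighbouring exons in lower case. The first set is a choice between exons in MAGUK transcripts, which use either a 100-base exon or a shorter one between the same neighbours. The Dlg1 exons lie at chr16:31846834-31846933 and chr16:31847636-31847669 on the plus strand, and the Dlg3 exons at chrX:100808053-100808152 and chrX:100809862-100809907 on the plus strand.
Dlg1 100-base exon: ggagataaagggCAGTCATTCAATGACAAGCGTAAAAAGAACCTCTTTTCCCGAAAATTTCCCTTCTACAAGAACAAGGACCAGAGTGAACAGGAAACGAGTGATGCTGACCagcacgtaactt
Dlg1 34-base exon: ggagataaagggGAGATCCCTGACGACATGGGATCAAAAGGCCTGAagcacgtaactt
Dlg3 100-base exon: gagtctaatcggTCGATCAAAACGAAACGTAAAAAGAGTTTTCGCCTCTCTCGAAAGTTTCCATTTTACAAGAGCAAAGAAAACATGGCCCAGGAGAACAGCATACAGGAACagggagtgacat
Dlg3 46-base exon: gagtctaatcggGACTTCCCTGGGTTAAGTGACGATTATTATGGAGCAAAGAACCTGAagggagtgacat

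The second set is a 60-base exon at the matching place of Nlgn1 (chr3:25920178-25920237, minus strand) and Nlgn3 (chrX:101307075-101307134, plus strand). Inserts of this length are known at splice site A of the neuroligins. The exons were identical at 43 of 60 bases (71.7%).
Nlgn1 60-base exon: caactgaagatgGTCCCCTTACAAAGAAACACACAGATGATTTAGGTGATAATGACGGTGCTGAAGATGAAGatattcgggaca
Nlgn3 60-base exon: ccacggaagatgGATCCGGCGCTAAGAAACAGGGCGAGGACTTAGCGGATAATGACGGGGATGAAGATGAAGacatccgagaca

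On the presynaptic side, the 90-base exon of Nrxn3 (chr12:90199147-90199236, plus strand) is the insert of splice site 4, which is known to alter binding to neuroligins, LRRTM proteins and cerebellins. Several micro-exons of Ptprd lie on the minus strand at chr4:76139294-76139302, chr4:76138556-76138573 and chr4:76135545-76135556, in the part coding for the immunoglobulin-like domains, where such inserts are known to set partner binding. A further 27-base exon lies at chr4:76095520-76095546 in Ptprd and at chr4:118227819-118227845 in Ptprf, both on the minus strand, and the pair were identical at 13 of 27 bases.
Nrxn3 90-base exon: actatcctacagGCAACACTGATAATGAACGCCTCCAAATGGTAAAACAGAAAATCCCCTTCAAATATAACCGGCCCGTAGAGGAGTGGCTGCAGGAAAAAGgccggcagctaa
Ptprd 9-base exon: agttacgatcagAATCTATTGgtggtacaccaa
Ptprd 18-base exon: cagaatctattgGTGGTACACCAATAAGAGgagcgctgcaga
Ptprd 12-base exon: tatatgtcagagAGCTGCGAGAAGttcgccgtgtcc
Ptprd 27-base exon: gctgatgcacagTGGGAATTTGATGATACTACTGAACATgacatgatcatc
Ptprf 27-base exon: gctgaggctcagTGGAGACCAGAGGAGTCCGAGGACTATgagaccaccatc

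The Cadm1 exons, at chr9:47818734-47818817 and chr9:47829377-47829409 on the plus strand, follow each other in the part coding for the stalk next to the membrane.
Cadm1 84-base exon: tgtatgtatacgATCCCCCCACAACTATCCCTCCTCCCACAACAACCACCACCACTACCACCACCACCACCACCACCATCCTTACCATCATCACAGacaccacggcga
Cadm1 33-base exon: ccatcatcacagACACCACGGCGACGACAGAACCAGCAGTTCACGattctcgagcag

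The last set shows where short forms of scaffold genes end or begin. Transcript Homer1-204 reads past an exon end used by the long forms for 31 coding bases at chr13:93356080-93356110 on the plus strand, and no other Homer1 model holds these bases. They are in capitals with the stop codon that follows, and this is the short form known as Homer1a. Transcripts Dlgap4-203 and Dlgap4-204 open their coding sequence at chr2:156722072-156722102 and chr2:156748966-156749025 on the plus strand, and the first 31 and 60 coding bases are in capitals without flanks.
Homer1-204 coding end: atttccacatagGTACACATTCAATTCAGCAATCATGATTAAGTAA
Dlgap4-203 coding start: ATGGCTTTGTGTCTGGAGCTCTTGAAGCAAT
Dlgap4-204 coding start: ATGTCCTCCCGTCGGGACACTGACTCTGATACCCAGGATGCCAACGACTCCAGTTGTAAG

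All 38 genes reached 1 TPM or more in both replicates, against 60.0% of the 21461 nuclear protein-coding genes. Because the set was chosen with earlier results of these data known, this difference is no independent result. The median level of the 38 genes was 12.9 and 14.1 TPM in the 2 pools. The median over all protein-coding genes was 4.54 ± 0.163 TPM (SD, n = 2), and over those at 1 TPM or more in both replicates it was 21.6 ± 0.0354 TPM. The set as a whole therefore lay above the middle of all genes and below the middle of the detected ones. Of the 38 means, 32 were at 5 TPM or more, 12 at 20 TPM or more and 2 at 100 TPM or more, and the highest was 198 ± 7.98 TPM for Ptprs and the lowest 2.38 ± 0.0707 TPM for Shank2. On GRCm38 the genes at the ends of this range are Ptprs at chr17:56412426-56476483 on the minus strand (ENSMUSG00000013236) and Shank2 at chr7:144001928-144424494 on the plus strand (ENSMUSG00000037541), and the highest scaffold is Dlgap4 at chr2:156613705-156764363 on the plus strand (ENSMUSG00000061689).

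The median level was 10.1 ± 0.647 TPM over the 16 scaffold genes, 14.3 ± 0.711 TPM over the 4 CaMKII subunits and 15.2 ± 1.38 TPM over the 18 adhesion genes. Scaffolds were lowest in each replicate, at 9.60 and 10.5 TPM. Kinases, at 13.8 and 14.8 TPM, and adhesion genes, at 14.3 and 16.2 TPM, overlapped in range. Every class spread far more widely among its members than the classes differed, from 2.38 to 163 TPM among scaffolds, from 9.32 to 24.9 TPM among kinases and from 3.60 to 198 TPM among adhesion genes.

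**Figure D1:**
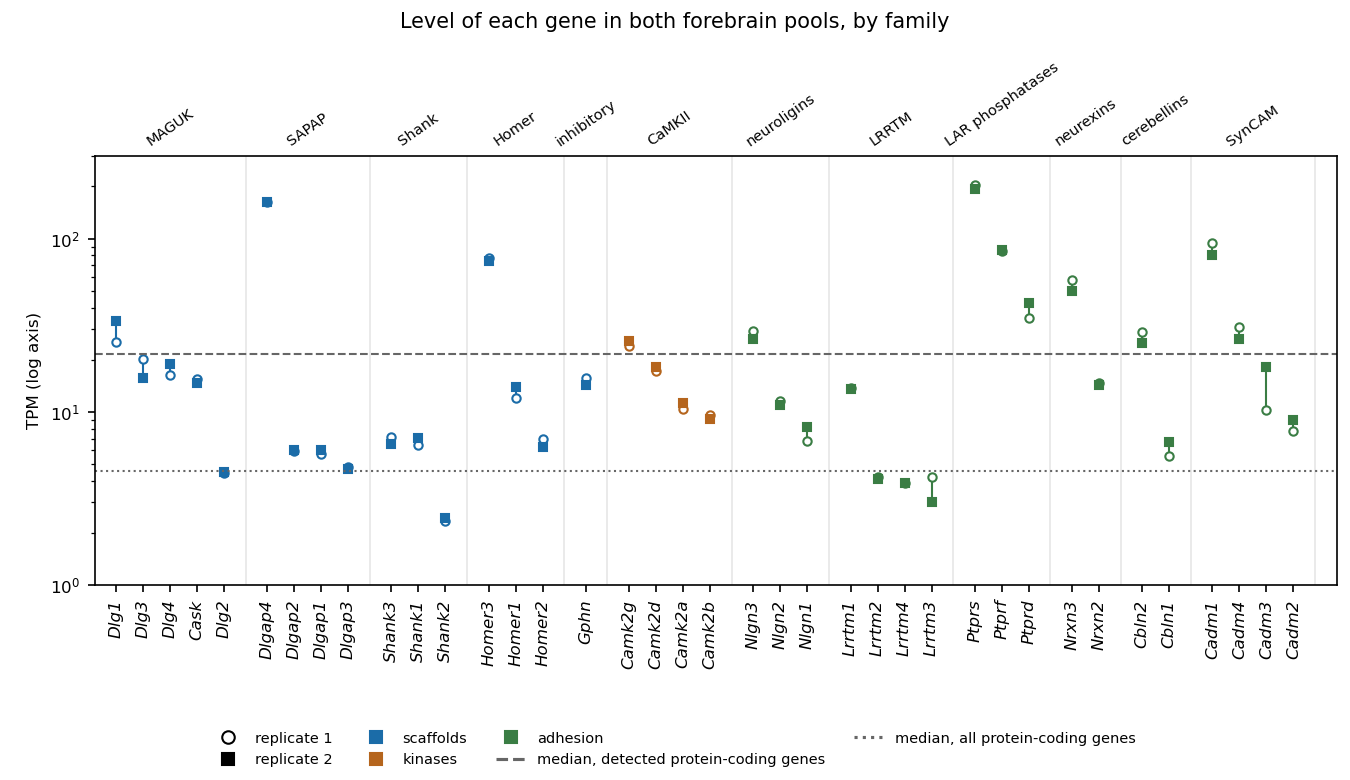
Level of each of the 38 genes in TPM (log axis), grouped by family and ordered by mean within it, with an open circle for replicate 1 and a filled square for replicate 2. Dlgap4, Homer3, Ptprs and Cadm1 stand above the other members of their families, Cadm3 shows the widest gap between the pools, and the lines mark the medians of 4.54 TPM over all and 21.6 TPM over detected protein-coding genes.

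Within families, neighbours in the order of mean level were called apart where they differed in the same direction in both replicates by more, on the log2(TPM + 1) scale, than either gene differed between replicates. This held for 17 of 26 neighbouring pairs. A log2 difference on this scale understates the difference of low genes. Each of the 11 families with more than 1 gene held at least 1 such pair.

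Among the MAGUKs, Dlg1, which codes for SAP97, had 25.1 TPM in replicate 1 and 33.5 TPM in replicate 2. Dlg3 (SAP102) had 20.1 and 15.6 TPM, Dlg4 (PSD-95) 16.3 and 19.0 TPM, and Cask, whose protein carries both a kinase-like and a MAGUK domain, 15.5 and 14.7 TPM. Dlg3 was above Dlg4 in replicate 1 and below in replicate 2, and no neighbours among these 4 genes were apart. Dlg2 (PSD-93) was the lowest, at 4.43 and 4.50 TPM, and was apart from Cask by 1.60 and 1.51 on the log2 scale.

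The SAPAP family was led by Dlgap4, at 164 and 163 TPM, which made up 90.9% and 90.7% of the summed level of the family. Dlgap2 had 5.96 and 6.0 TPM and Dlgap1 5.69 and 6.02 TPM, and these were not apart. Dlgap3 had 4.79 and 4.68 TPM. The whole-gene level of Dlgap4 was thus 27.3 times that of the next member, and the section on transcripts below shows which part of its coding sequence those transcripts carried.

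The Shank genes, which code for the scaffold deepest in the density, were all low. Shank1 had 6.46 and 7.07 TPM and Shank3 7.19 and 6.51 TPM, in opposite order in the replicates. Shank2 was apart from both at 2.33 and 2.43 TPM, and its deposited intervals ran from 1.97 to 2.84 TPM in replicate 1 and from 2.13 to 2.86 TPM in replicate 2. Among the Homers, Homer3 was the highest in both pools at 77.4 and 74.7 TPM. Homer1 followed at 12 and 14.0 TPM and Homer2 at 6.94 and 6.28 TPM, each apart from its neighbour. Exons of Homer3 share 874 bases with Ddx49 on the other strand, which was at 44.7 TPM in both replicates, and no source used here says whether reads were counted by strand, so the level of Homer3 is uncertain to that extent. The same holds for Lrrtm2, with 95 bases shared with Ctnna1, and for Nrxn2, with 207 bases shared with Gm14964, while Nlgn3 shares 3823 bases with Gm21986 on its own strand, which was at 1.49 and 1.06 TPM. Gephyrin (Gphn) was at 15.8 and 14.3 TPM.

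Over all transcripts, the CaMKII subunits with wide expression outside the brain stood above those typical of mature neurons. The end of this paragraph qualifies this for Camk2d. Camk2g had 24.1 and 25.6 TPM and Camk2d 17.1 and 18.2 TPM, apart by 0.47 in each replicate on the log2 scale. Camk2a had 10.4 and 11.3 TPM and Camk2b 9.58 and 9.06 TPM, and these were not apart, while Camk2d was apart from Camk2a by 0.67 and 0.64. The highest subunit therefore exceeded the lowest 2.67 times, a narrower span than in the SAPAP (34.5 times) or Homer (11.5 times) families.

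Among the postsynaptic adhesion genes, Nlgn3 was the highest neuroligin, at 29.4 and 26.2 TPM. Nlgn2, whose protein is found at inhibitory synapses, had 11.5 and 11 TPM, and Nlgn1, whose protein is found at excitatory synapses, 6.81 and 8.14 TPM. All neuroligin neighbours were apart. Lrrtm1 was the highest of the LRRTM genes, which code for leucine-rich repeat partners of neurexins, at 13.8 and 13.5 TPM. Lrrtm2 (4.21 and 4.11 TPM), Lrrtm4 (3.87 and 3.86 TPM) and Lrrtm3 (4.20 and 3.01 TPM) lay close together. Lrrtm2 was apart from Lrrtm4 by only 0.10 and 0.07 on the log2 scale, and with the authors' posterior mean TPM this pair stood in the opposite order, by -0.08.

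The presynaptic partners included the highest levels of the set. Ptprs, the receptor phosphatase PTPσ, had 204 and 192 TPM and ranked 722 of 21461 protein-coding genes. Ptprf (LAR) followed at 84.6 and 85.4 TPM and Ptprd (PTPδ) at 34.6 and 42.7 TPM, and all neighbours were apart. The family is also known in axon growth. Its summed level, 323 and 321 TPM, was below the 390 and 392 TPM of the 16 scaffolds together, of which Dlgap4 gave 164 and 163 TPM. Of the neurexins analysed, Nrxn3 had 57.7 and 50.01 TPM and Nrxn2 14.8 and 14.2 TPM, and these were apart. Cbln2, which codes for a secreted cerebellin that bridges neurexins to postsynaptic receptors, had 29.1 and 25.1 TPM, and Cbln1 5.53 and 6.67 TPM.

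The SynCAM genes code for immunoglobulin-like adhesion proteins that act on both sides of the synapse. Cadm1 was the highest at 94.7 and 80.0 TPM, and was apart from Cadm4 at 31.1 and 26.5 TPM. Cadm3 had 10.2 and 18.2 TPM and Cadm2 7.74 and 8.98 TPM. Because Cadm3 differed so much between the pools, it was not apart from either neighbour.

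Cadm3 was the only one of the 38 genes that differed more than 1.5-fold between the pools, higher in replicate 2 by 0.78 on the log2(TPM + 1) scale, on 572 and 1101 expected counts. Over 13079 protein-coding genes at a mean of 1 TPM or more, 1.26% were higher in replicate 2 by more than 1.5-fold and 0.535% were lower, and against these shares a count of 1 gene is no result about the set. The rise lay mainly in the coding transcript Cadm3-201, at 3.79 and 10.45 TPM, whereas Cadm3-202 had 2.37 and 3.27 TPM. Exons of Cadm3 share 361 bases with Ackr1 on the same strand, which was at 3.58 and 4.20 TPM. In the same direction as Cadm3, Emx1, a marker of the cortical wall, had 58.9 and 73.5 TPM, and in the other, the ganglionic markers Dlx1 and Dlx2 had 246 and 170 TPM and 109 and 70.8 TPM, and their part in the Cadm3 difference was not tested. The next largest differences were 0.40 for Dlg1, higher in replicate 2, and -0.37 for Lrrtm3, and the median over the 38 genes was -0.02.

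A whole-gene level adds up all transcripts, so the deposited share of each transcript in its gene's TPM was examined next. A transcript was called long coding where its coding length was at least 50% of the longest of its gene, and short coding below that. By this rule Homer1-204, with 558 of 1110 coding bases, counts as long coding, so the long coding level of Homer1 includes Homer1a. Of the 38 genes, 36 had 2 or more transcripts in the tables. The leading transcript was long coding in 26 of them, short coding in 3 (8.33%) and without coding sequence in 7 (19.4%). Among 9457 detected protein-coding genes with 2 or more transcripts, the leading one was short coding in 5.05% and without coding sequence in 6.48%. It differed between the replicates in 6 of the 36 genes (16.7%; Dlg1, Dlg2, Dlgap2, Camk2a, Nlgn2 and Ptprd), against 9.18% of the 9457.

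TPM is per length, so a short transcript model gains share from few reads. By shares of expected counts, an alternative chosen after the data were seen, the leading transcript was long coding in 32 of 36 genes, short in 1 and without coding sequence in 3. Leading transcripts by counts were not tallied over the 9457 genes, so these numbers are no result about the set. Long coding transcripts held a median of 86.7% of TPM and 97.0% of expected counts over the 36 genes, and 86.4% and 95.0% over the 9457 genes. The 36 genes were thus close to the background in the median while the share led by transcripts without coding sequence was higher by TPM, a difference that was not tested.

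**Figure D2:**
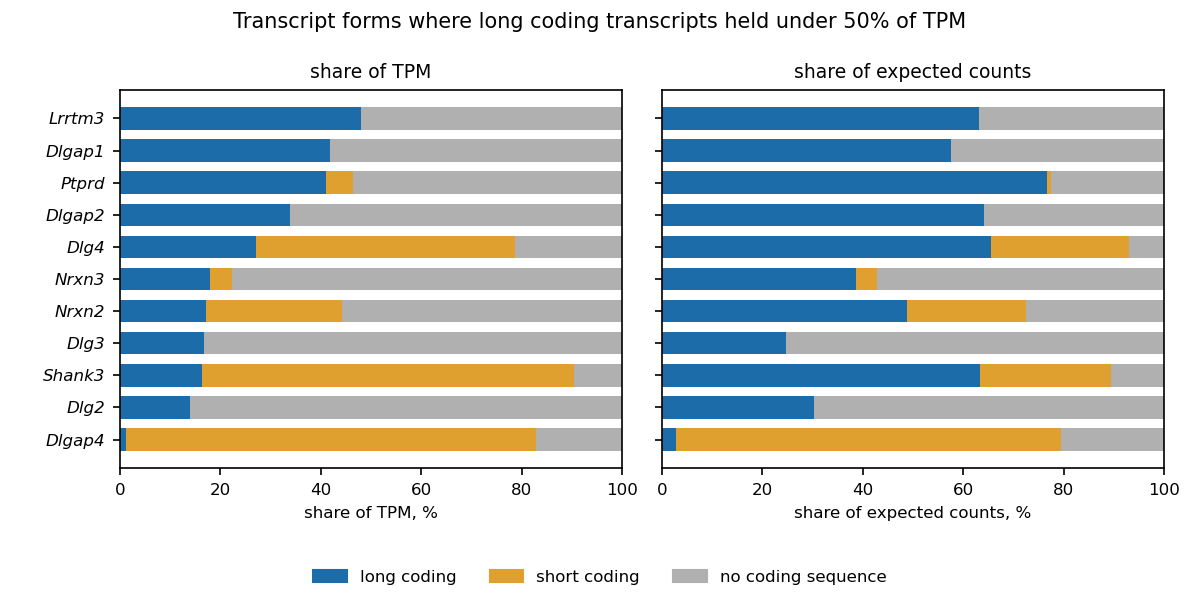
Share of long coding (blue), short coding (yellow) and non-coding (grey) transcripts, as the mean of 2 replicates in percent of TPM (left) and of expected counts (right), for the 11 genes where long coding transcripts held under 50% of TPM. In Dlgap4, Dlg2, Dlg3, Nrxn2 and Nrxn3 the mean long coding share is under 50% on both scales. For Nrxn2 the replicates lay on either side of 50% of expected counts, at 52.6% and 45.0%. In the other 6, among them Dlg4, Shank3 and Ptprd, the mean long coding share exceeds 50% of expected counts.

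Dlgap4 had the largest gap between the whole-gene level and its long form. Dlgap4-204, with 855 coding bases, held 60.8% and 61.3% of TPM, and Dlgap4-203, with 1359, held 13.9% and 12.8%. The 4 models with the long coding sequence, up to 2976 bases, held 1.80 TPM in each replicate on 173 and 179 expected counts. Transcripts Dlgap4-203 and Dlgap4-204 start 107787 and 107340 bases downstream of the start of the long form, past 5 coding exons with 1648 coding bases, and their coding sequences, whose first bases are printed above, are 45.7% and 28.7% as long as that one. As background, the repeats through which SAPAP proteins bind MAGUKs lie in the first part of the protein, and the end that binds Shank lies at the last. By expected counts the short coding forms still held 76.7% of the gene, so Dlgap4 was led by short coding forms on both scales.

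Counting long coding transcripts only, Dlgap3 was the highest SAPAP gene, at 4.79 and 4.69 TPM, ahead of Dlgap1 at 2.73 and 2.15 TPM and Dlgap2 at 2.32 and 1.74 TPM. Dlgap4, at 1.80 TPM in each replicate, was below Dlgap2 in replicate 1 and above it in replicate 2. The Shank order changed as well, with Shank1 at 5.82 and 5.97 TPM, Shank2 at 1.96 and 2.26 TPM and Shank3 at 0.90 and 1.32 TPM. Shank3 was thus below Shank2 in both replicates on this measure and above it over all transcripts. The MAGUK order also spread out, with Dlg1 at 18.9 and 22.0 TPM, Cask at 14.7 and 13.6 TPM, Dlg4 at 5.15 and 4.31 TPM, Dlg3 at 3.13 and 2.77 TPM and Dlg2 at 0.56 and 0.70 TPM. The Dlg1 value includes Dlg1-209, a model annotated for nonsense-mediated decay, at 4.81 and 6.22 TPM. Without it Dlg1 had 14.1 and 15.8 TPM, below Cask in replicate 1 and above it in replicate 2. On the log2 scale Dlg4 over Cask was -1.40 and Dlg3 over Dlg4 -0.53, as means of both replicates, and both pairs were apart. The median of the scaffold class fell to 4.74 TPM on this measure, against 9.96 TPM for kinases and 11.6 TPM for adhesion genes.

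**Figure D3:**
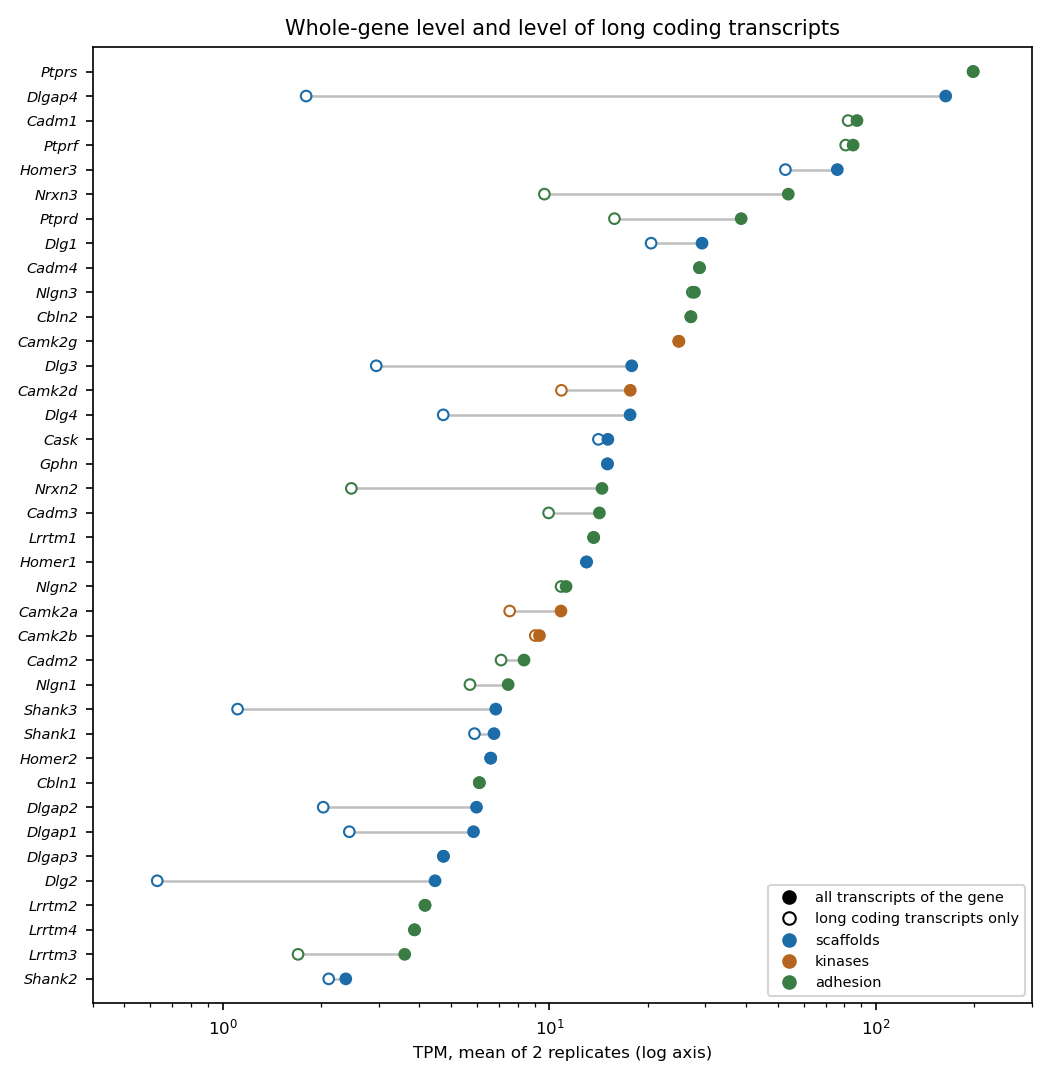
Mean TPM of 2 replicates (log axis) for each of the 38 genes over all transcripts (filled) and over long coding transcripts only (open), joined by a line. Dlgap4 drops from 163 to 1.80 TPM, and Nrxn3, Nrxn2, Dlg3, Dlg4, Dlg2 and Shank3 also drop, as do Ptprd (38.6 to 15.8 TPM) and Lrrtm3 (3.60 to 1.70 TPM) among the adhesion genes.

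Dlg3 was led by Dlg3-208, a transcript of 3316 bases annotated without coding sequence, which held 67.2% and 74.8% of TPM on 874 and 790 expected counts. Its start lies inside the gene and it runs to the same end as the coding transcripts, and it carries the 100-base exon printed above. For Dlg4 the leading model, Dlg4-208, was an incomplete one with 728 coding bases, at 33.5% and 30.3% of TPM, and Dlg4-201 with 1992 coding bases held 52.4% and 51.1% of expected counts. Shank3 behaved alike, with 76.1% and 72.2% of TPM in the incomplete model Shank3-207 of 719 bases on 68.4 and 61.1 expected counts, while Shank3-201 held 106 and 166 counts. By expected counts Dlg4 and Shank3 were thus led by long coding transcripts. Shank1 was read almost entirely as the full-length Shank1-203, with 90.2% and 84.3% of TPM, and Shank2 mainly as Shank2-205, with 50.7% and 52.0%, which starts 282511 bases downstream of the longest form, Shank2-203.

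Homer1 was made mostly of transcripts with the full-length end, at 63.3% and 69.0% of TPM. Homer1-204, the activity-induced short form whose coding end is printed above, held 11.9% and 10.0% on 161 and 165 expected counts. Homer1-206, with 699 coding bases, held 20.5% and 10.5% on 123 and 75.7 expected counts. By expected counts Homer1-204 was thus above Homer1-206 in both pools, the opposite of their order by TPM. The Homer1a protein lacks the coiled coil that joins long Homer proteins. The share of Homer1-204 thus differed little between the pools, and that of Homer1-206 more. Homer2 was read as 1 transcript, Homer2-201, and Homer3 mainly as Homer3-203 at 35.5% and 49.5% and Homer3-201 at 35.3% and 18.4%, which have the same coding length, with the retained-intron model Homer3-207 at 17.3% and 22.6%. Gephyrin was divided between Gphn-202 at 78.3% and 81.8% and Gphn-201 at 21.7% and 18.2%.

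Both neurexins carried much of their level outside the coding transcripts. In Nrxn3, retained-intron models Nrxn3-204 and Nrxn3-209 held 52.0% and 57.0%, and 19.4% and 16.7%, of TPM. The long coding form Nrxn3-205, the alpha type, had 8.77 and 7.11 TPM on 1382 and 1168 expected counts, and the short beta-type forms Nrxn3-202 and Nrxn3-203, which start 1017979 bases further on, had 2.68 and 2.21 TPM together. The alpha form of Nrxn3 was thus above the beta forms in both pools. In Nrxn2 the alpha form Nrxn2-205 had 2.26 and 2.33 TPM and the beta form Nrxn2-202 1.17 and 2.90 TPM, in opposite order in the pools. The largest single share of Nrxn2, 29.0% and 30.1%, belonged to a 576-base model without coding sequence, Nrxn2-213, on 6.75% and 5.66% of the counts.

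Exon choice was then compared over coding exons that some transcripts include and others splice out. An inclusion share is the TPM of transcripts with the exon, in percent of the TPM of transcripts that include it or splice it out. It rests on how the authors' tables assign reads to whole transcripts, since counts of junction reads were not used here, and only models with the same length in the tables and in M21 were used. With a share between 10% and 90%, 50 exons in 20 of the 38 genes qualified. Of these, 38 had a length that is a multiple of 3 and 10 had 30 bases or fewer. Exons spliced out together count separately here, as in Ptprs and Cadm2. Such exons were not counted over other genes, so these counts are no result about the set.

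**Figure D4:**
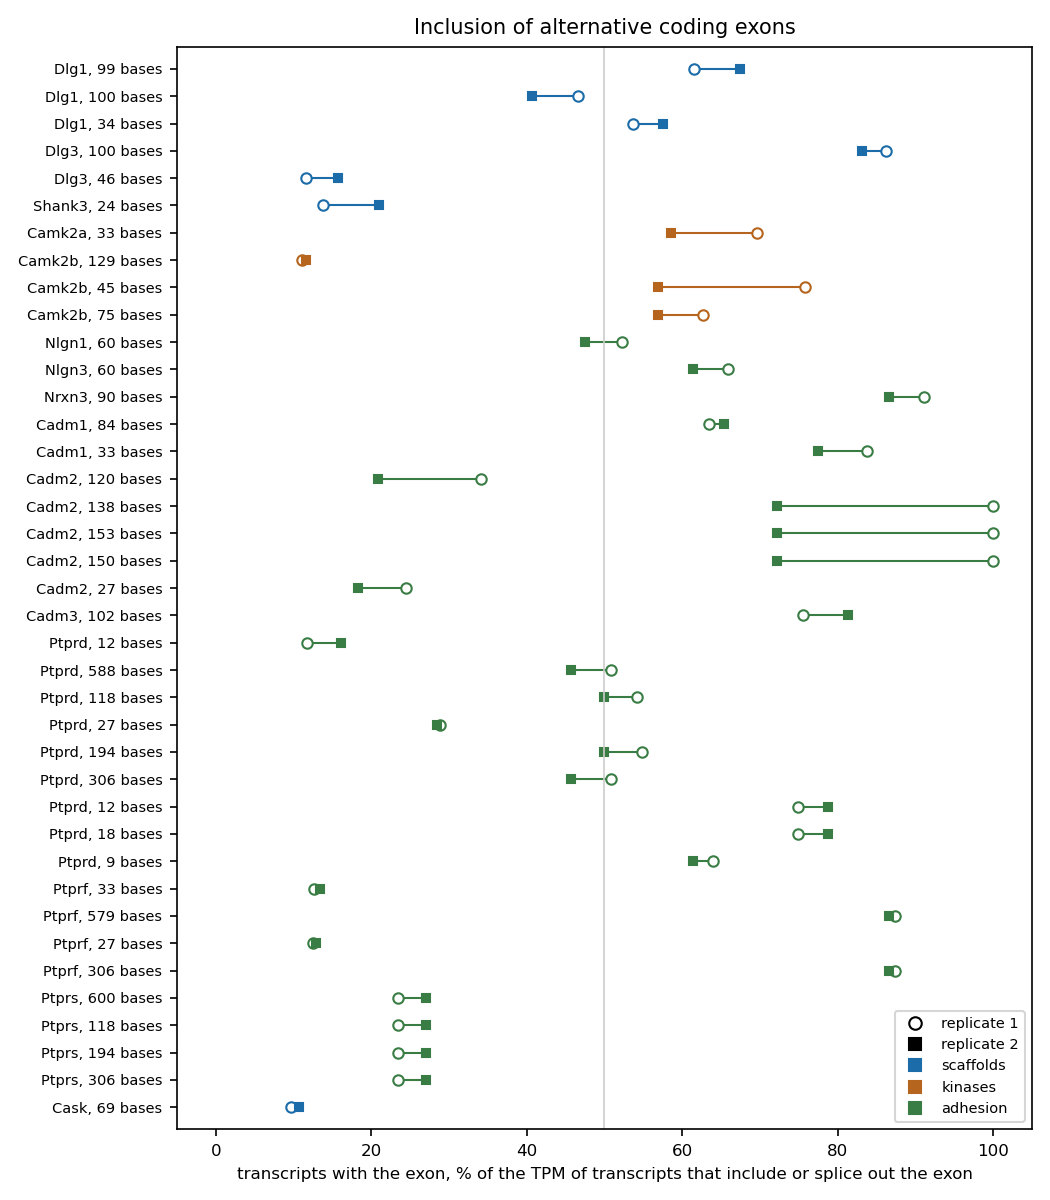
Inclusion share in percent of the 39 alternative coding exons whose including and excluding transcripts summed to 5 TPM or more in both replicates, with an open circle for replicate 1 and a filled square for replicate 2, coloured by class. The 306-base exon lies far apart in the 3 LAR-type genes, at 87.4% and 86.6% in Ptprf, 50.9% and 45.7% in Ptprd and 23.4% and 27.0% in Ptprs. The Ptprf level without this exon rests on an incomplete model. The exons of Cadm2 and Camk2b show the widest gaps between replicates.

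The LAR-type phosphatases share a block of extracellular exons, and proteins of this family are known in forms with more and with fewer fibronectin type III repeats. Ptprs-202, with 4503 coding bases, held 76.6% and 73.0% of TPM, and Ptprs-201, with 5721, held 23.4% and 27.0%. The long form has 4 coding exons of 600, 118, 194 and 306 bases that the short one splices out. Ptprs-201 and Ptprs-202 start 14267 bases apart, so the Ptprs exon shares also follow the balance of these starts. Ptprd has exons of the same 118, 194 and 306 bases, identical to those of Ptprs at 68.6%, 67.5% and 61.1% of bases. The 306-base exon was included at 50.9% and 45.7% in Ptprd and at 87.4% and 86.6% in Ptprf. The order from Ptprf through Ptprd to Ptprs was the same in both pools, and each gap was wider than any difference between replicates. In Ptprd the transcripts entering this share made up 42% of the gene's TPM in replicate 1, in Ptprf 96.9% and in Ptprs all of it. In Ptprf the level without the exon, 10.36 and 10.62 TPM, rests on the incomplete model Ptprf-206.

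Of the Ptprd micro-exons, the 3 printed above for the immunoglobulin-like part were mostly included. The 9-base exon stood at 63.9% and 61.3%, and the 18-base and 12-base exons, carried largely by the same transcripts, at 74.9% and 78.8% each. Another 12-base exon of Ptprd, at chr4:76054589-76054600, was included at only 11.7% and 16.1%. The 27-base exon in the fibronectin block was included at 28.8% and 28.5% in Ptprd and at 12.5% and 12.9% in Ptprf. The Ptprd 9-, 12- and 18-base shares rest on transcripts with 36.6% of the gene's TPM in replicate 1. The Ptprf-206 model that carries the Ptprf exon is incomplete.

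The neuroligin exon was included at 52.2% and 47.5% in Nlgn1 and at 65.9% and 61.4% in Nlgn3. Inclusion was higher in Nlgn3 in each pool, by more than either gene differed between pools. Nlgn1-205, with the exon, and Nlgn1-203, without it, start 179153 bases apart, so the Nlgn1 share also follows the balance of these starts. For Nlgn3 the transcripts used held 99.3% of TPM in replicate 1, and for Nlgn1 78.4%. The splice site 4 exon of Nrxn3 was included at 91.1% and 86.6%, among transcripts with 23.7% of the gene's TPM in replicate 1. Transcript Nrxn3-203, which splices the exon out, is a beta-type form, so this share also follows the balance of alpha and beta forms.

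Among MAGUK transcripts, the 100-base exon was included at 46.6% and 40.7% in Dlg1, and the 34-base exon at 53.6% and 57.6%. The nonsense-mediated decay model Dlg1-209 gave 4.81 and 6.22 of the 7.81 and 12.48 TPM with the 34-base exon. Dlg1-202 alone carried the 100-base exon, at 5.82 and 7.78 TPM, so the order of these 2 Dlg1 exons depends on Dlg1-209. Transcripts used for the Dlg1 100-base exon held 49.7% and 57.1% of the gene's TPM. In Dlg3 the 100-base exon stood at 86.2% and 83.1% and the 46-base exon at 11.7% and 15.7%. The 100-base exons of Dlg1 and Dlg3, printed above, were identical at 49 of 100 bases without gaps. Over all transcripts the share was higher in Dlg3 than in Dlg1 in both pools. In Dlg3 most of that share is Dlg3-208, the model without coding sequence. Over transcripts annotated as coding, an alternative added after seeing the data, the Dlg3 100-base exon was included at 26.5% and 11.6%. The Dlg3 46-base exon then stood at 73.5% and 88.4%. On this alternative the Dlg1 100-base share stayed at 46.6% and 40.7%, above that of Dlg3. It still counts Dlg1-209 as coding, so the 2 genes are not treated alike. These exons lie in the hook region between the SH3 and guanylate kinase domains, which is known to differ between MAGUK isoforms. The Cask exon of 69 bases was included at 9.67% and 10.7%.

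In the stalk of Cadm1, the 84-base exon was included at 63.5% and 65.4% and the 33-base exon at 83.8% and 77.5%, over transcripts with 93.5% of TPM in replicate 1. The 120-base exon of Cadm2 stood at 34.2% and 20.8%, and the 102-base exon of Cadm3 at 75.5% and 81.4%, or 61.5% and 76.2% over coding transcripts. The Cadm1 values were close between the pools, and the Cadm2 exon differed more. In the kinases, Camk2b included a 45-base exon at 75.8% and 56.9% and a 75-base exon at 62.7% and 56.9%, and the replicates differed widely for the first. Camk2a included a 33-base exon at 69.7% and 58.6%, and Camk2g was read mainly as Camk2g-203, with 83.0% and 81.0% of TPM. Camk2a-207, an incomplete model, held 7.7% and 41.4% of TPM on 1.01% and 7.62% of the counts.

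Other genes of the same compartments were set beside the 38. Of 25 further postsynaptic density genes, 25 were at 1 TPM or more in both replicates, with a median of 10.2 ± 0.346 TPM, and the highest were Lin7c at 134 and 125 TPM, Nsmf at 91.9 and 85.1 TPM and Abi2 at 62.3 and 53.8 TPM. Of 28 further adhesion and organiser genes, 26 reached 1 TPM in both, with a median of 7.09 ± 0.0849 TPM. Flrt3 (58.8 and 71.0 TPM), Adgrl2 (59.5 and 60.9 TPM) and Clstn1 (47.8 and 62.1 TPM) were the highest, and Slitrk6 (0.75 and 1.47 TPM) and Cbln3 (0.22 and 0.04 TPM) fell short. The median of the 38 genes, 13.5 ± 0.838 TPM, was above that of both lists. The set and the lists were chosen with earlier results of these data known, so this order is descriptive only.

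All 7 matched partners of gephyrin, of 8 listed, were detected, with a median of 14.4 ± 0.757 TPM, close to gephyrin itself. Gabarap had 445 and 437 TPM, Mocs2, of the molybdenum cofactor pathway in which gephyrin also acts, 68.8 and 69.6 TPM, and Lhfpl4, a partner of Nlgn2 at inhibitory synapses, 27.8 and 24.0 TPM. All 12 CaMKII partners and other CaM kinases were detected, with a median of 12.3 ± 0.944 TPM. The inhibitors of CaMKII stood lower than any subunit, Camk2n2 at 6.08 and 6.52 TPM and Camk2n1 at 3.97 and 4.42 TPM.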

How the data were processed

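Gene and transcript tables of 2 libraries were analysed, on mouse build mm10 (GRCm38) with GENCODE M4 per the text deposited with them. No source used here names the aligner or quantifier. The deposited expected counts are the estimated number of reads of a gene or transcript, often with a fraction. The deposited TPM and posterior mean TPM are relative to all features, spike-ins included (9.19% and 8.25% of TPM). The authors' interval bounds, handled as a signal column because their level is not stated, enclosed the deposited TPM of 36 and 37 of the 38 genes. The percent that a transcript takes of the TPM of its gene was used as deposited. Totals were 33711030 and 34578499 expected counts. The intervals cover read assignment and counting only, and no source used here mentions molecular identifiers.

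Gene names, transcript classes, exons and sequences came from GENCODE M21 by identifier. It named 306 of 307 transcripts of the 38 genes, 262 of them with unchanged length. The 38 genes and all lists were chosen with earlier results of these data known, and the alternatives based on expected counts, on long coding transcripts with and without nonsense-mediated decay models, and on coding transcripts for exons were added after seeing the data. All genes of the set are accounted for, with values for the highest and lowest of each family and for neighbours called apart. Transcript values are given for part of the genes only, and not every leading transcript is named. Of the further lists other than that of CaM kinases, the 3 highest genes and those under 1 TPM are given. Nothing was filtered out among the 38 genes. With 1 group of 2 pools no test was possible, so means carry the SD over 2 replicates, and neighbours were judged against the spread between replicates with a pseudocount of 1 TPM. Expected counts were rounded and scaled by TMM in edgeR 4.0.16 and by DESeq2 1.42.0 size factors as alternatives. Other steps used Python 3.11.15, numpy 2.4.6, pandas 2.3.3, matplotlib 3.10.9 and R 4.3.3. Some genes of these families and lists are not reported here.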

Additional observations from a re-analysis of the deposited data

How the results depend on the processing

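No paired analysis was possible because the samples form 1 group. Rescaling TPM to nuclear protein-coding genes raised the class medians to 12.6 TPM for scaffolds, 17.8 for kinases and 19.1 for adhesion genes, by construction. With posterior mean TPM the kinase median was 15.4 TPM. Counting long coding transcripts only gave 4.74, 9.96 and 11.6 TPM, and 4.40, 9.96 and 10.4 TPM without nonsense-mediated decay models. In both, Dlgap1 over Dlgap3 reversed (-0.74 on the log2 scale), and Dlgap4 over Dlgap2 had a mean of -0.11 with opposite signs in the replicates. That pair was no longer apart, nor was Camk2d over Camk2a (0.49). Of 26 neighbours 20 were then apart, 14 of them as before. Posterior mean TPM reversed Lrrtm2 over Lrrtm4 (-0.0845). The causes were not tested. By shares of expected counts, 3 genes were led by a transcript without coding sequence and 1 by a short coding one, and the same numbers, 3 and 1, held over 50% of their counts in such forms, against 8 and 3 by TPM. Over the 9457 genes, 3.14% and 2.15% held over 50% of their counts in such forms, and 6.95% and 3.68% held over 50% of their TPM in them. The 1 short coding gene in 36 (2.78%) over 50% of counts is thus near its background. Leading transcripts by counts have no such background here. Leaving out either replicate changed the number of genes led by non-coding transcripts to 6, and by short coding ones to between 3 and 4. All 38 genes stayed at 0.5 TPM or more in both replicates, 32 had a mean of 5 TPM or more, and Cadm3 alone passed 1.5-fold under each of the 5 alternatives for the replicate comparison. With posterior mean TPM, an alternative added after seeing the data, the 42-base exon of Camk2d moved most, by 20.1 percentage points. The genes had as few as 170 expected counts (Dlg2), which limits their transcript shares.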
